A study of Mus musculus with 8 samples.

Results

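The immunoglobulin variable (V) segments were the 218 rows of the mRNA table, out of 22298, whose symbols start with Ighv, Igkv or Iglv. They comprised 115 heavy chain rows (Ighv), 100 kappa light chain rows (Igkv) and 3 lambda light chain rows (Iglv). All 218 symbols matched mouse RefSeq genes, of which 213 are annotated as V segments and 5 as V pseudogenes. RNA came from 4 sorted B cell populations, pro-B to mature B, and the question was how the level and the make-up of V transcripts differed between these stages.

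Each V segment encodes most of the antigen-binding domain of an antibody chain. In a developing B cell, a heavy chain V segment is joined to a D and a J segment by the RAG recombinase, and a light chain V segment is joined to a J segment later, at the pre-B stage. Unrearranged V segments can also be transcribed while their locus is open, and a rearranged segment is transcribed with the constant region downstream of it. Segments are grouped by sequence likeness into families, given by the number before the hyphen in the symbol.

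All cells came from the bone marrow of wild-type, untreated C57BL/6 females at an age of 8-10 weeks, and live cells were sorted as 7-AAD negative. Pro-B cells were taken as B220+IgM-CD43+, pre-B cells as B220+IgM-CD43-, immature B cells as B220+IgM+CD43- and mature B cells as B220hiIgM+CD43-. Cells of 3 mice were pooled for each stage and 1 rRNA-depleted RNA library was made per stage, so no value has a replicate check, no test between stages was possible, and 95% intervals cover counting error only. Estimated counts in the mRNA table summed to 867920 in pro-B, 240231 in pre-B, 223495 in immature B and 849350 in mature B cells.

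The stage labels were checked against marker genes. Dntt, the terminal transferase of pro-B cells, had 845 counts in the pro-B library and 0 in the other 3. Igll1 and Vpreb1, which form the surrogate light chain, had 427 and 318 counts in the pro-B library and at most 2 elsewhere. Fcer2a, the CD23 of mature B cells, had 358 counts in mature B cells and 0 in the others. Of the pre-B markers, Rag2 had 109.5, 316, 94.0 and 4.71 CPM from pro-B to mature B cells. Il2ra had 67.98, 83.25, 26.85 and 2.355 CPM. Not every marker followed the labels. Rag1, a subunit of the recombinase listed as a pre-B marker, was highest in pro-B cells. It had 797, 89.4, 0 and 1 counts from pro-B to mature B cells, or 918, 372, 0 and 1.18 CPM. Igll1 was at 0 in the pre-B library, and Vpreb3, a pre-B marker related to the surrogate light chain, had 182, 295, 456 and 6.91 CPM with its highest value in immature B cells. Of the immature B markers, Cd93 was highest in pro-B cells, with 429, 183, 94.0 and 56.5 CPM, and Ms4a1, the CD20 antigen, had 104, 41.6, 1016 and 792 CPM.

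V transcripts were few in every library. All V rows together held 534, 377, 632 and 1200 counts from pro-B to mature B cells, between 0.0616% and 0.283% of the column total. At least 1 count was found for 66 Ighv segments in pro-B, 50 in pre-B, 51 in immature B and 70 in mature B cells. For Igkv the numbers were 32, 32, 49 and 62, and for Iglv 2, 3, 3 and 3. Thus the number of detected kappa segments was equal in the pro-B and pre-B libraries and larger in both later ones, whereas the number of heavy chain segments was highest in the 2 libraries with the largest column totals. Thinned to the smallest column total, the expected numbers were 42.5, 49.7, 51 and 50.7 for Ighv and 18.8, 31.7, 49 and 47.8 for Igkv. At equal summed V counts of each locus they were instead 61.1, 50, 49.9 and 60.0 for Ighv and 30.1, 32, 39.9 and 43.9 for Igkv. The pro-B library thus held the fewest Ighv segments by the first way of thinning and the most by the second, whereas for Igkv it held the fewest by both. Olfactory receptor genes, which belong to the nose and were counted the same way after the V values had been seen, were detected for 6.87% to 8.63% of 1194 rows, against 43.5% to 60.9% of Ighv and 32% to 62% of Igkv rows.

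**Figure D1:**
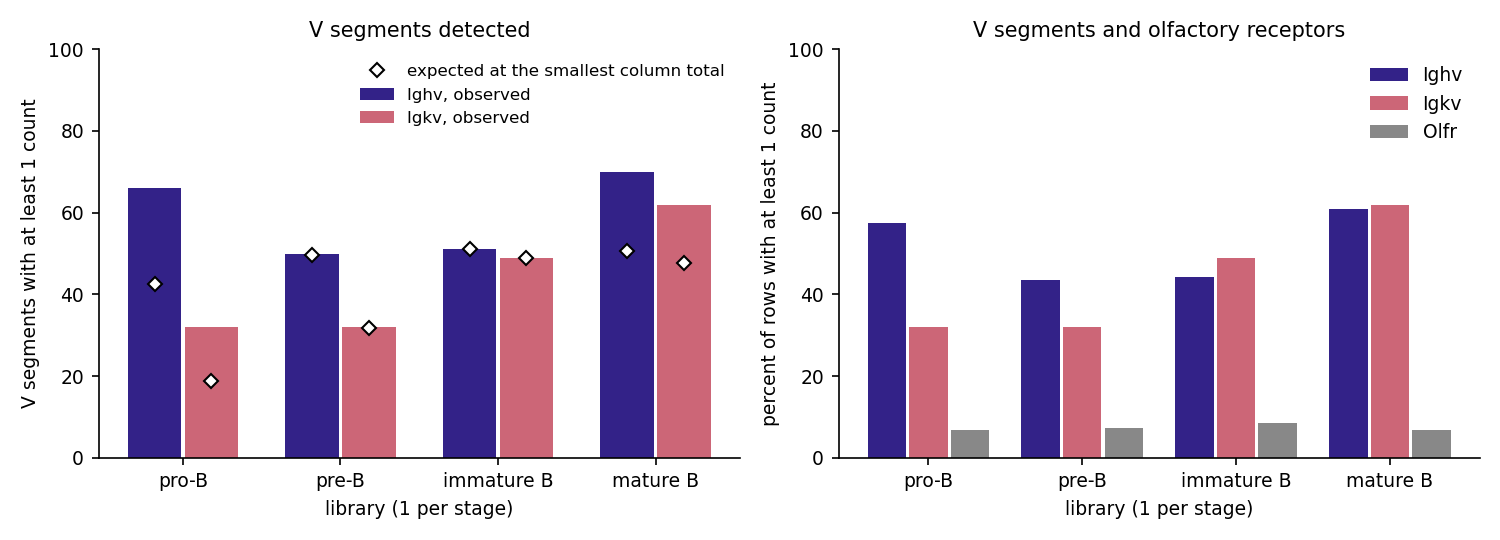
Left, number of Ighv and Igkv segments with at least 1 count in each library (bars), with the number expected at the smallest column total (diamonds). Right, percent of Ighv, Igkv and olfactory receptor (Olfr) rows with at least 1 count; every V bar stands at 32% or more and every Olfr bar at 8.63% or less.

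Over the 4 libraries, 41 of the 218 segments had no count, 38 were detected in all 4 libraries and 48 in 1 library. Of those found in 1 library, 22 were found in mature B, 12 in immature B, 7 in pre-B and 7 in pro-B cells. Summed V counts also differed, at 534, 377, 632 and 1200 from pro-B to mature B cells. The same split was not made over all mRNA rows, so these numbers do not show segments particular to a stage. Few segments were well covered, as 15 exceeded 3 counts in all 4 libraries and 84 reached 10 counts in total. Igkv1-135, Iglv3 and Iglv2 had the most counts among those 15, with 205, 132 and 71.9 in total.

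Summed Ighv counts were 306, 194, 236 and 463 from pro-B to mature B cells. Scaled to counts per 1000000 of the column total (CPM), they gave 353 in pro-B, 808 in pre-B, 1056 in immature B and 545 in mature B cells. Summed Igkv counts were 181, 134, 332 and 650, or 209, 557.8, 1485 and 765 CPM. Kappa V transcripts thus had their highest CPM in immature B cells, as did heavy chain V transcripts. Summed Iglv counts were 47.4, 48.5, 63.7 and 86.8, or 54.6, 202, 285 and 102 CPM.

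The deposited FPKM values, which are scaled by transcript length and by mapped fragments, gave another course. Their Ighv sums were 159, 96.5, 126 and 248, their Igkv sums 88.4, 62.3, 170 and 337, and their Iglv sums 23.3, 22.5, 32.4 and 43.5. By FPKM the lowest level was in pre-B and the highest in mature B cells for all 3 loci. The column totals of the pre-B and immature B libraries were far smaller than those of the other 2, whereas the median ratio of count to FPKM lay between 13.3 and 15.5 in all 4. In the pre-B and immature B libraries 91.2% and 90.9% of the counts of the mRNA and lncRNA tables lay in unannotated transcripts, against 73.0% and 73.1% in mature B and pro-B cells. In sorted bulk RNA, fewer cells with V transcripts and less V RNA per cell cannot be told apart.

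**Figure D2:**
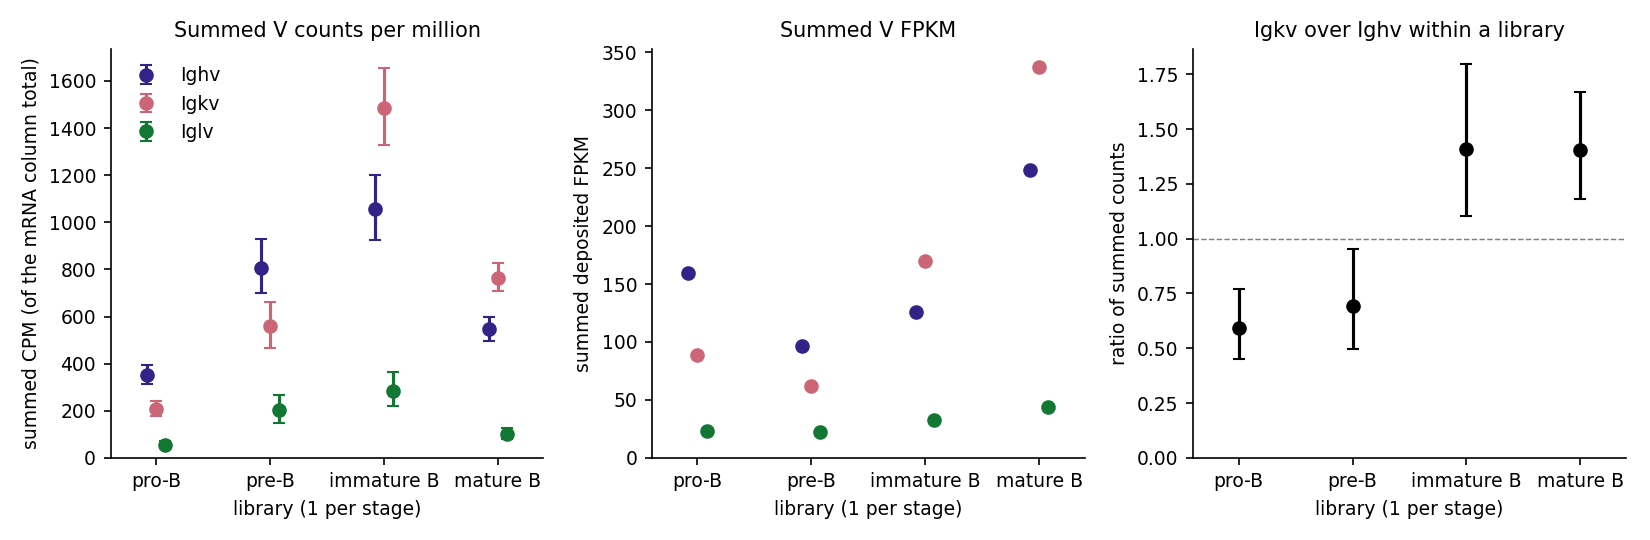
Summed level of V segments by locus in CPM (left, bars are 95% Poisson intervals) and in FPKM (middle), and the ratio of Igkv to Ighv counts within each library (right, 95% intervals with counts halved, dashed line at 1). CPM was highest in immature B cells and FPKM in mature B cells, while the ratio lay below 1 in pro-B and pre-B cells and near 1.4 in both later libraries.

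Ratios within a library do not depend on either scale. The ratio of Igkv to Ighv counts was 0.592 in pro-B (95% interval 0.489 to 0.713), 0.691 in pre-B (0.550 to 0.865), 1.41 in immature B (1.19 to 1.67) and 1.40 in mature B cells (1.24 to 1.59). Heavy chain V counts therefore prevailed in the 2 IgM-negative populations and kappa V counts in the 2 IgM-positive ones. Between pre-B and immature B cells the ratio was 2.04 times higher (1.55 to 2.69), and it was 0.998 times as high in mature as in immature B cells (0.813 to 1.23). Between 68.0% and 81.2% of the nonzero V counts were even numbers, so intervals were also made with counts halved, and that of the pre-B to immature B step was then 1.38 to 3.01. The ratio from summed FPKM was 0.555, 0.645, 1.35 and 1.36.

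The constant regions also had lower kappa over heavy chain ratios in the IgM-negative than in the IgM-positive libraries. Igkc, the kappa constant region, had 26.0, 38.1, 129 and 286 counts, and Ighm, that of IgM, had 3276, 1717, 1747 and 3314. Their ratio was 0.00794, 0.0222, 0.0741 and 0.0862 from pro-B to mature B cells. It was 2.80 times higher in pre-B than in pro-B (1.69 to 4.62) and 3.34 times higher in immature than in pre-B cells (2.31 to 4.82). From pro-B to pre-B cells the ratio of Igkv to Ighv differed less, at 1.17-fold with an interval of 0.877 to 1.56. Kappa V counts exceeded Igkc counts throughout, 6.96-fold in pro-B, 3.51-fold in pre-B, 2.57-fold in immature B and 2.28-fold in mature B cells. The excess was largest by value in the pro-B library (4.60 to 10.9), where Igkc had the fewest counts. That interval overlapped the pre-B one (2.44 to 5.18). The pre-B excess was 0.505 times the pro-B one (0.293 to 0.872, and 0.233 to 1.09 with counts halved). Igkv1-135 alone held 64 of the 181 pro-B kappa V counts. The ratio of Ighv to Ighm counts was 0.0934, 0.113, 0.135 and 0.140, 1.496-fold higher in mature B than in pro-B cells (1.28 to 1.74). Where Ighd, the IgD constant region that shares V segments with Ighm, was added to the denominator, it was 0.0918, 0.112, 0.133 and 0.0941, so that the mature and pro-B values lay close together. The 31 D and J segment rows, which supply the rest of the variable domain, had no count in any library.

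Segments were then compared between adjacent stages by a rule of size. A segment counted as higher or lower at a CPM fold of at least 2, with counts of 3 or fewer set to 3, among rows with at least 10 counts over the pair. From pro-B to pre-B cells, 26 V segments could be compared, of which 16 were higher and 0 lower by CPM, beside 17.9% higher and 27.5% lower among 9712 rows of the whole table. The rule left little room for lower calls, since against 3 counts in the small pre-B library a lower call needed 22 pro-B counts, which 2 of the 26 V segments had beside 70.0% of all rows, while a higher call needed 2 pre-B counts. With library sizes implied by the FPKM values, 5 were higher and 9 lower, beside 3.06% and 78.5% of all rows. The median log2 difference of the V segments compared was 1.12 by CPM where that of all rows was -0.26, and -0.66 by the FPKM sizes where that of all rows was -2.03. Its direction turned with the scale, whereas the gap to the median row is equal on both scales by construction.

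Ighv1-19 had 7, 16, 4 and 3 counts from pro-B to mature B cells, and its pre-B level was 8.26-fold the pro-B level in CPM (3.21 to 23.7) and 2.16-fold in FPKM. Ighv3-8 had 2, 8, 2 and 0 counts, with a pre-B to pro-B ratio of 9.63 in CPM against a floor of 3 counts and a counting interval of 2.88 to 140. Both heavy chain segments stood out in the pre-B library on both scales. Igkv2-137, the kappa segment farthest from Igkc, had 4, 9, 13 and 8 counts and was 8.13-fold above its pro-B level in pre-B cells in CPM (2.27 to 36.1) and 2.13-fold in FPKM. Igkv19-93 had 6, 4, 6 and 6 counts, and its 2.41-fold higher CPM in pre-B cells (0.500 to 10.2) stood beside an FPKM fold of 0.665.

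From pre-B to immature B cells both scales gave nearly the same values. Summed Igkv CPM was 2.66-fold higher (2.17 to 3.28) and summed Ighv CPM 1.31-fold higher (1.08 to 1.59), the latter with an interval of 0.991 to 1.73 when counts were halved. Summed Iglv CPM was 1.41-fold higher (0.957 to 2.095). Of 33 V segments compared, 17 were higher and 2 lower, beside 18.5% and 18.9% of 7004 rows. A higher call was within reach for 31 of the 33 and a lower call for 11. Kappa segments made up 10 of the 17 higher, out of 16 compared, and none was lower. Heavy chain segments gave 6 higher and 2 lower of 14, and lambda segments 1 higher and 0 lower of 3. Of the 17 higher segments, 9 had 3 or fewer counts in pre-B cells.

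Igkv17-127 had 0, 4, 18 and 20.8 counts, and its CPM was 4.84-fold higher in immature than in pre-B cells (1.59 to 19.7). Igkv3-10 had 2, 0, 13.6 and 12 counts, at least 4.87-fold higher in immature than in pre-B cells. Both kappa segments had few or no counts in the IgM-negative libraries and similar raw counts in the IgM-positive ones. As the column total was 223495 in immature and 849350 in mature B cells, their CPM was lower in mature B cells. Ighv1-50 had 0, 2, 10 and 10 counts, with an immature to pre-B ratio of 3.58 against the floor and an interval of 1.15 to 50.5. Ighv1-52 had 5, 2, 8 and 26.7 counts, with a ratio of 2.87 and an interval of 0.858 to 41.6. The 2 lower segments were Ighv1-19, at 0.269 of its pre-B CPM (0.0654 to 0.833), and Ighv3-8, at 0.403 against the floor (0.0278 to 1.35).

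From immature to mature B cells the scales parted again. Summed CPM was 0.516-fold for Ighv (0.440 to 0.606) and 0.515-fold for Igkv (0.451 to 0.590), whereas summed FPKM was 1.97-fold and 1.98-fold. The 2 loci had nearly equal folds on either scale, but in opposite directions between the scales. Of 66 V segments compared, 3 were higher and 31 lower by CPM, beside 22.5% and 21.6% of 8992 rows. Here the rule left little room for higher calls, since against 3 counts in the immature B library a higher call needed 23 mature counts, which 11 of the 66 had beside 65.6% of all rows, while a lower call needed 2 immature B counts, which 56 had. With sizes implied by FPKM, 28 were higher and 8 lower, beside 73.4% and 4.18% of all rows. The median log2 difference of V segments was -0.93 by CPM where that of all rows was 0.07, and 0.80 by the FPKM sizes where that of all rows was 1.80.

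The 3 higher segments by CPM were all kappa segments, and their FPKM was higher in mature B cells as well. Igkv10-96 had 16, 2, 6 and 79 counts, and its mature level was 3.47-fold the immature level in CPM (1.52 to 9.73) and 13.1-fold in FPKM. Igkv6-32 had 4, 2, 4 and 33 counts, 2.17-fold in CPM (0.772 to 8.44) and 8.20-fold in FPKM. Igkv6-17 had 2, 0, 0 and 25.9 counts, at least 2.27-fold higher in mature than in immature B cells in CPM, and was listed at 0 FPKM in immature and 13.0 in mature B cells. All 3 had single-digit counts or none in the pre-B and immature B libraries. In the other direction, Igkv4-68 had 0, 4, 17 and 0 counts, at least 21.5-fold lower in mature than in immature B cells, and was the third kappa segment of the immature library. Igkv3-12 had 0, 8, 11 and 4 counts, with a mature level 0.0957 of the immature one in CPM (0.0222 to 0.323) and 0.362 in FPKM. Ighv1-78 and Ighv5-17 each had 8 counts in immature and 4 in mature B cells, a CPM fold of 0.132 (0.0290 to 0.491) and FPKM folds of 0.496 and 0.497.

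Among the heavy chain families, Ighv1 (J558), with 54 of the 115 rows the largest, held 43.1% of Ighv counts in pro-B (95% Wilson interval 37.7% to 48.7%), 50% in pre-B (43.0% to 57.0%), 59.8% in immature B (53.4% to 65.8%) and 64.8% in mature B cells (60.3% to 69.0%). Ighv1 had a larger share at each later stage, and the intervals of pro-B and mature B cells did not overlap. Family Ighv8 went from 13.7% in pro-B (10.3% to 18.0%) to 4.12%, 4.66% and 4.54% in the later libraries. With counts halved, its pro-B interval of 9.16% to 20.1% overlapped those of pre-B (1.62% to 10.1%) and immature B cells (2.08% to 10.1%). It stayed above that of mature B cells (2.52% to 8.04%). Within this family, Ighv8-6 had 16, 4, 0 and 0 counts and was the second heavy chain segment of the pro-B library. Families Ighv2 and Ighv5, which lie nearest to the D segments, together held 13.1%, 16.5%, 23.7% and 12.7% of the counts, with 17.4% of the rows. Their share was largest in immature B cells (18.8% to 29.6%) and smallest in mature B cells (10.01% to 16.1%), but with counts halved these intervals overlapped, at 17.0% to 32.2% and 9.05% to 17.7%. The 38 segments nearest to Ighm by order, another measure of the same end of the locus, held 25.8%, 26.8%, 26.7% and 20.5%, with no peak in immature B cells. Ighv16 had no count in any library.

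By order along the locus, the 39 Ighv segments farthest from Ighm held 36.9%, 29.4%, 38.1% and 47.1% of the counts from pro-B to mature B cells. The mature share (42.6% to 51.6%) lay above the pre-B share (23.4% to 36.1%). The heavy chain counts were spread over many segments. The effective number of Ighv segments, the inverse Simpson index that equals the number of segments if all had equal counts, was 41.7, 33.6, 32.1 and 37.5. The segment with the most counts held 5.56% of Ighv counts in pro-B cells (Ighv6-3), 8.25% in pre-B (Ighv1-19), 8.47% in immature B and 7.13% in mature B cells (both Ighv1-26).

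Ighv1-26 had 8, 9, 20 and 33 counts, or 4.19, 4.46, 10.8 and 17.8 FPKM, and was among the top 3 heavy chain segments from the pre-B stage on. Ighv6-3 had 17, 6, 6 and 4 counts, or 8.78, 2.93, 3.21 and 2.13 FPKM. Their highest FPKM lay at opposite ends of the series, in mature B cells for Ighv1-26 and in pro-B cells for Ighv6-3. Ighv1-18 had 12, 8, 12 and 8 counts, and Ighv1-64 had 2, 6, 12 and 9. Ighv1-82, one of the segments farthest from Ighm, had 0, 4, 4 and 24 counts, or 5.18% of the mature Ighv counts.

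**Figure D3:**
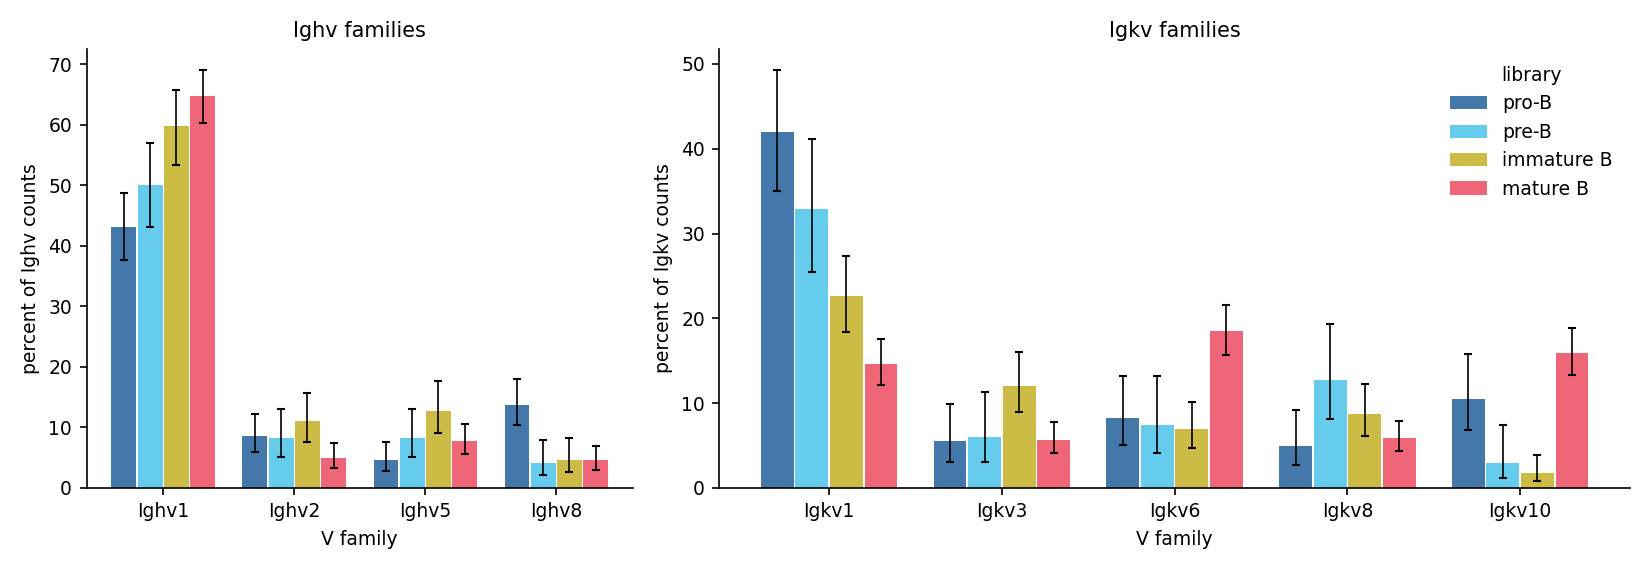
Percent of Ighv counts (left) and Igkv counts (right) held by each V family that reached 10% in at least 1 library, with 95% Wilson intervals and 1 bar per library. Ighv1 went from 43.1% in pro-B to 64.8% in mature B cells, while Igkv1 went from 42.0% to 14.6%.

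The kappa locus was more uneven. Family Igkv1 held 42.0% of Igkv counts in pro-B (35.0% to 49.3%), 32.8% in pre-B (25.5% to 41.2%), 22.6% in immature B (18.4% to 27.4%) and 14.6% in mature B cells (12.1% to 17.5%), with 10% of the rows. A single segment, Igkv1-135, made up most of it. Igkv1-135 had 64, 28, 58 and 55 counts, or 29.9, 12.4, 28.0 and 26.4 FPKM, and held 35.4%, 20.9%, 17.5% and 8.46% of the Igkv counts. It had more counts than any other V segment in the pro-B, pre-B and immature B libraries. Without the top segment of each library, the Igkv1 share was 10.3%, 15.1% and 6.20% in these 3 libraries.

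In mature B cells families Igkv6 and Igkv10 led. Igkv6 held 18.5% of Igkv counts there (15.7% to 21.6%), against 8.29%, 7.46% and 6.93% in the earlier libraries. With counts halved, its mature interval of 14.6% to 23.0% overlapped those of pro-B (4.17% to 15.8%) and pre-B cells (3.23% to 16.3%). It stayed above that of immature B cells (3.96% to 11.8%). Igkv10 held 10.5% in pro-B (6.82% to 15.8%), 2.99% in pre-B, 1.81% in immature B (0.831% to 3.89%) and 15.9% in mature B cells (13.3% to 18.9%). Most of the Igkv10 counts were those of Igkv10-96, which held 12.2% of the mature Igkv counts and had the highest FPKM of the named V segments in that library, 41.6. Family Igkv3 was largest in immature B cells with 12.0% (8.97% to 16.0%), against 5.53%, 5.97% and 5.69% in pro-B, pre-B and mature B cells. Igkv4, with 26 rows the kappa family with the most members, held 2.21%, 6.72%, 8.43% and 6.00%. Families Igkv7, Igkv18 and Igkv20 had no count.

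The effective number of Igkv segments was 6.74 in pro-B, 14.1 in pre-B, 18.6 in immature B and 24.5 in mature B cells. At a common depth of 134 kappa counts it was 6.67, 14.1, 17.2 and 21.5, and without the top segment of each library 17.9, 22.7, 29.3 and 29.7. Kappa counts were thus spread over more segments at each later stage, both with all counts and at the common depth. The values without the top segment were not brought to a common depth, and those of immature and mature B cells lay close together. The 34 segments farthest from Igkc held 72.4% of the counts in pro-B (65.5% to 78.4%), 61.9% in pre-B, 56.9% in immature B and 56.5% in mature B cells (52.6% to 60.2%). Left without Igkv1-135, that part held 57.3%, 51.9%, 47.8% and 52.5%, with overlapping intervals of 48.2% to 65.9% in pro-B and 48.4% to 56.4% in mature B cells. The 33 segments nearest to Igkc held 18.8%, 27.6%, 28.3% and 30.0%.

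**Figure D4:**
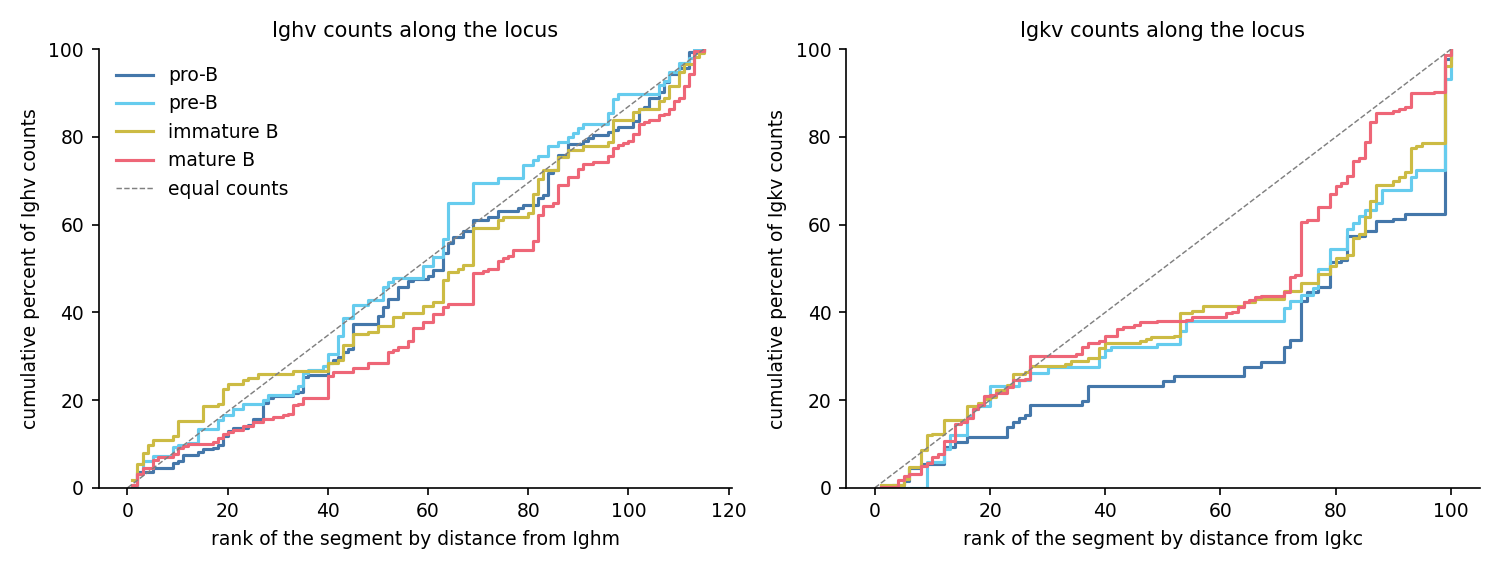
Cumulative percent of Ighv counts (left) and Igkv counts (right) along the locus, with segments ranked by distance from Ighm or Igkc, 1 line per library and a dashed line for equal counts per segment. The Ighv lines stay near the dashed line, while the Igkv lines run below it and climb among the farthest segments, with a step at rank 99 for Igkv1-135 that is 35.4% of the counts in pro-B and 8.46% in mature B cells.

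Among kappa segments present at every stage, Igkv15-103 had 10, 6, 6 and 20 counts and Igkv6-15 had 7, 4, 10 and 19. Igkv1-110 had 10, 6, 2 and 10.8 counts and shared the third place among kappa segments of the pro-B library with Igkv15-103. None of these 3 was at 0 in any library, unlike Igkv17-127 or Igkv4-68.

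The lambda locus has 3 V segments and all were detected. Iglv1 had 0 counts in pro-B, 23.4 in pre-B, 17.5 in immature B and 2.15 in mature B cells. It was at least 28.2-fold higher in CPM in the pre-B than in the pro-B library, and its mature to immature ratio was 0.0452 against the floor of 3 counts (0.00405 to 0.131). Iglv1 was therefore found mainly in the 2 middle libraries, and FPKM values of 0, 10.4, 8.49 and 1.04 gave the same order. Iglv3 had 27.4, 11.1, 28.4 and 64.6 counts, and Iglv2 had 20, 14, 17.9 and 20. The share of Iglv1 in the lambda V counts was 48.2% in pre-B and 2.48% in mature B cells, where Iglv3 held 74.5%.

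The ratio of Iglv to Igkv counts was 0.262, 0.362, 0.192 and 0.133 from pro-B to mature B cells. It was 0.530 times as high in immature as in pre-B cells (0.347 to 0.810, and 0.291 to 0.965 with counts halved). Iglc1, the constant region of lambda 1 chains, which carry Iglv1, had 4, 38, 49 and 37 counts. From immature to mature B cells it went from 219 to 43.6 CPM and from 20.5 to 15.4 FPKM, while Iglv1 went from 8.49 to 1.04 FPKM. Iglc2 had 17, 51, 55 and 126 counts and Iglc3 15.3, 29.7, 41.9 and 95.5. Counts of Iglc1 to Iglc4 together were 1.47, 3.27, 1.14 and 0.912 times those of Igkc from pro-B to mature B cells. Kappa thus exceeded lambda several-fold in V counts but not in constant region counts. Some lambda V segments and some lambda constant genes are close copies of each other, and counts may be split between those.

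**Figure D5:**
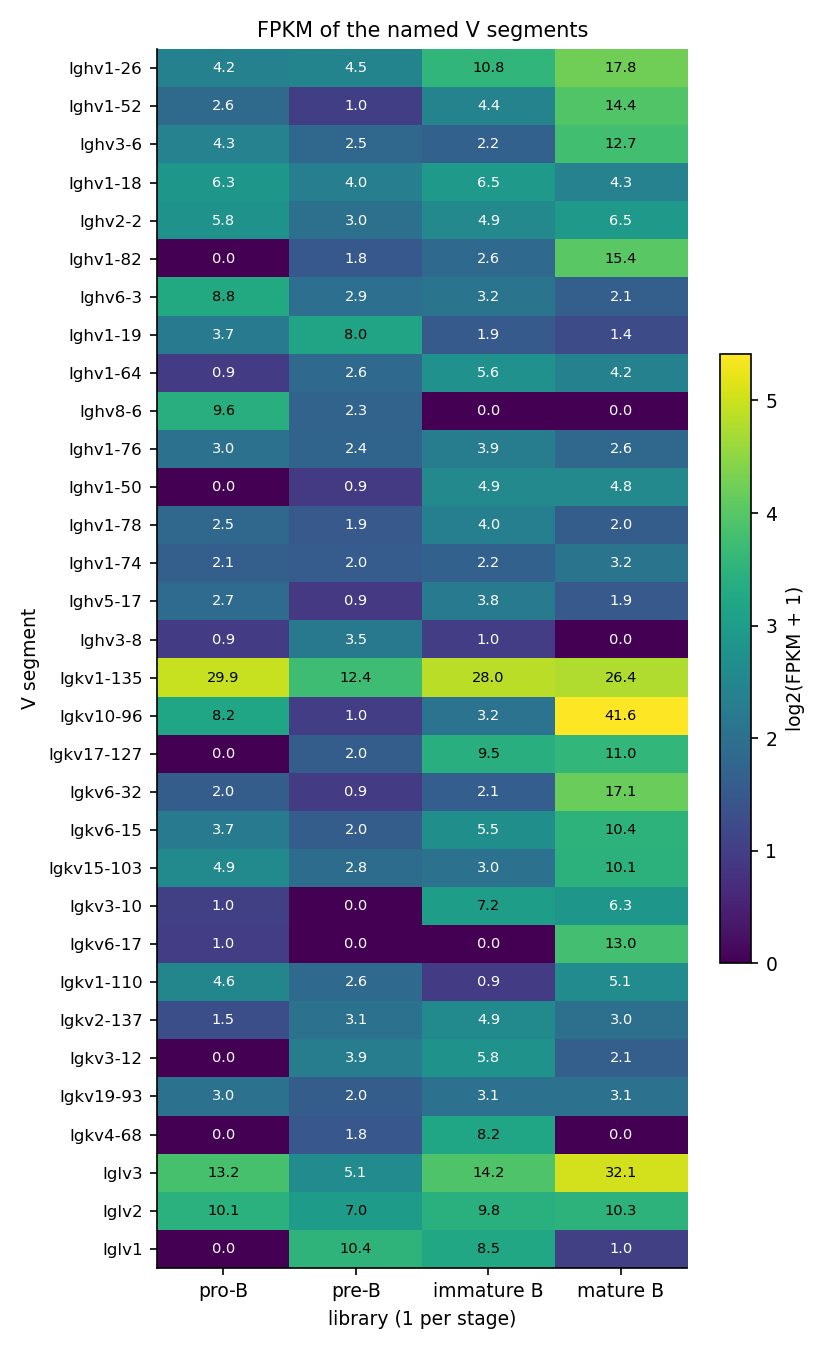
FPKM of the V segments named in the text, and of the others with over 3 counts in every library, with colour on a log2(FPKM + 1) scale and the FPKM printed in each cell, ordered within each locus by summed FPKM. Igkv1-135 stood at 12.4 or more in every library, Igkv10-96 reached 41.6 in mature B cells, and Iglv1 was at 0 in pro-B cells.

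Correlations across segments between libraries depended on the measure. Spearman's rho over the 115 Ighv rows was between 0.317 and 0.476 for the 6 pairs of libraries, and over the 100 Igkv rows between 0.275 and 0.548. Over only the segments detected in at least 1 library of a pair, rho was lower. It then lay between 0.0499 and 0.285 for Ighv and between -0.0715 and 0.347 for Igkv, lowest for Igkv in pro-B against pre-B cells. Pearson's r, which weights the segments with most counts such as Igkv1-135, was between 0.323 and 0.584 for Ighv and between 0.465 and 0.826 for Igkv, with the highest for pro-B and pre-B cells. These are descriptions, since segments of a library share its depth and many rows are at 0 in both. Among the top 10 Igkv segments, 5 were shared by the pre-B and immature B libraries and 5 by the immature and mature B libraries, against 4 for pro-B and pre-B. For Ighv the shared numbers were 4, 3 and 3.

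Other genes of the pathway were compared by the same rule in CPM, which carries the same dependence on the scale at the first and last steps and is read against the shares of all rows given above, 17.9% higher and 27.5% lower, then 18.5% and 18.9%, then 22.5% and 21.6%. Of the 13 constant region genes, 6 of 11 compared were higher and 0 lower from pro-B to pre-B cells, then 1 higher and 2 lower of 10, then 1 higher and 5 lower of 10. Ighd was the gene higher in mature B cells, with 59, 13, 24 and 1607 counts. Of the 15 genes of V(D)J recombination, 2 were higher and 4 lower of 14 at the first step, 1 higher and 5 lower of 10 at the second, and 2 higher and 2 lower of 11 at the third. Rag2, the partner of Rag1, had 95, 76, 21 and 4 counts, so the recombinase transcripts were lowest in the libraries where kappa V counts were highest. Of the 22 regulators of the loci, 2 were higher and 6 lower, then 2 higher and 4 lower, then 7 higher and 2 lower, all of 22 compared, which at the first step left their lower share at that of all rows. Pax5, the B lineage factor, had 1030, 203, 278 and 1663 counts and lay at 1187, 844, 1242 and 1958 CPM.

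Markers of other cells were measured beside these values. Class-switched constant genes (Ighg1 to Ighg3 and Igha), transcribed in plasma and memory cells, summed to 128, 62, 41 and 48 counts. In CPM they gave 147.5, 258, 183 and 56.5, highest in pre-B cells. Of 8 plasma cell markers in the table, the summed CPM lay between 653 and 836, and Tnfrsf17 was at 0 in all libraries. Jchain had 38, 8, 8 and 6 counts, or 43.8, 33.3, 35.8 and 7.06 CPM. Sdc1 had 35.7, 108, 35.8 and 25.9 CPM. Irf4, also listed as a regulator of the loci, had 354, 247, 201 and 499 CPM. Markers of T and NK cells summed to 178 counts in pro-B cells, of which 106 were Gzma, and to 0, 0 and 5 in the others, with Cd3e at 0 in pro-B cells. Markers of granulocytes and monocytes lay between 1151 and 1511 CPM and those of erythroid cells between 213 and 410. The part of these cells in the V levels was not tested.

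V segments of a family are alike in sequence and some are close copies, so a count assigned to one may belong to another. Reads of rearranged and of unrearranged segments cannot be told apart in these tables, and no circRNA of the circRNA table came from a V segment.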

How the data were processed

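The authors cleaned reads with fastp, removed rRNA reads with Bowtie2, mapped the rest with HISAT2 as a stranded library and quantified genes with StringTie. The estimated counts per gene were deposited by the authors without normalization and are not all whole numbers. The FPKM values deposited by the authors are scaled by transcript length and mapped fragments. The circRNA table deposited by the authors holds counts of back-spliced reads and their RPM values, and was used only to look for V segments as source genes. The submitters' processing notes name mm9 and Bowtie 0.12.2, the latter without a role. The 4 small RNA libraries were not used.

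CPM was computed here as the count over the mRNA column total. Adjacent stages were compared by fold alone, since the study's test between single libraries has no estimate of the spread. Intervals at 95% are exact Poisson for sums, conditional binomial for ratios and Wilson for shares. The order of segments along a locus was taken from RefSeq, without coordinates. The calculation of folds, ratios and shares was tested on simulated data. Named were, per locus, the 3 segments with the most counts in each library, the 2 with the largest fold in each direction per step, every Iglv row, the 3 with the most counts among those over 3 counts in every library, and members of the gene lists. Igkv15-103 and Igkv6-15 were chosen after their values were seen. The V segments, the gene lists and the rules were chosen with earlier results of these data known. Alternative library sizes came from DESeq2 1.42.0 and edgeR 4.0.16 in R 4.3.3, and all else from Python 3.11.15 (scipy 1.17.1, numpy 2.4.6, pandas 2.3.3), with figures by matplotlib 3.10.9.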

Additional observations from a re-analysis of the deposited data

How the results depend on the processing

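No paired analysis was possible because each stage has 1 library and the libraries share no animal-level numbers. Of 302 alternatives, 219 left the value within its counting interval or within 1.5 times a count, 77 moved it and 6 turned its direction. Summed FPKM set beside summed CPM, which has another unit, was counted as moved in every case. An effective number was counted as moved wherever it was not identical.

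The 6 that turned were folds of summed FPKM, namely pre-B over pro-B for Ighv (0.606), Igkv (0.705) and Iglv (0.967), and mature over immature B for Ighv (1.97), Igkv (1.98) and Iglv (1.34). The FPKM sums from pro-B to mature B cells were 159, 96.5, 126 and 248 for Ighv, 88.4, 62.3, 170 and 337 for Igkv, and 23.3, 22.5, 32.4 and 43.5 for Iglv.

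With rows of at least 10 counts in total, summed CPM was 271, 670, 882 and 444 for Ighv from pro-B to mature B cells, and 458, 1284 and 662 for Igkv from pre-B on. Without the top segment of each library, it was 135, 441, 1226 and 672 for Igkv and 23.0, 105, 158 and 26.1 for Iglv, and the Iglv fold of mature over immature B cells was 0.165. The same omission gave an Igkv to Ighv ratio of 0.405 in pro-B cells, Iglv to Igkv ratios of 0.171, 0.237, 0.129 and 0.0388, Igkv1 shares of 10.3%, 15.1% and 6.20% in the first 3 libraries, and Igkv10 shares of 16.2% in pro-B and 4.22% in mature B cells.

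More than 3 counts were found for 35, 24, 28 and 45 Ighv segments from pro-B to mature B cells, and for 14, 14 and 27 Igkv segments from pro-B to immature B cells. At least 10 counts were found for 8, 1, 4 and 13 Ighv and 4, 1, 12 and 23 Igkv segments. In pre-B cells 29 Ighv and 17 Igkv segments reached an FPKM of 1. At the smallest column total 42.5 Ighv and 18.8 Igkv segments were expected in pro-B cells. The effective number at equal V counts was 38.7, 31.2 and 33.8 for Ighv in pro-B, immature B and mature B cells, and 6.67, 17.2 and 21.5 for Igkv. The Ighv segments nearest to Ighm by order, 38 of 115, held 25.8% in pro-B, 26.8% in pre-B, 26.7% in immature B and 20.5% in mature B cells, in place of the share of Ighv2 and Ighv5.

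At a fold of at least 4, 6 of 26 V segments were higher from pro-B to pre-B cells beside 6.88% of all rows. From pre-B to immature B cells 7 of 33 were higher and 0 lower, beside 5.05% and 4.13%. From immature to mature B cells 0 of 66 were higher and 16 lower, beside 6.31% and 8.82%. The floor left no more room at 4-fold than at 2-fold, where 11 of 66 had counts for a higher call at the last step. A lower call at the first step was in reach for 2 of 26 at 2-fold. The 0 higher calls at the last step thus carry little information. Without a filter on low counts, 52 of 218 were higher at the first step beside 13.4% of all rows, and 59 lower at the last beside 14.5%. With library sizes implied by FPKM, an alternative chosen after seeing the data, 5 of 26 were higher and 9 lower at the first step. At the last step 28 of 66 were higher and 8 lower by those sizes. Depth limits all single segments, since 84 of 218 reached 10 counts over the 4 libraries.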
